A study of Mus musculus with 10 samples.

Results

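Respiratory complex I, the NADH:ubiquinone oxidoreductase, was followed through the nuclear genes that carry its name in whole olfactory epithelium, the sensory lining of the mouse nose. The set holds every gene of the authors' deposited table whose symbol begins with Nduf, 45 of 24421 genes, and 44 of them were tested. The animals were untreated mice on a C57BL/6 background, aged 6 months, of which 6 carried the human Apoe4 allele and 4 the human Apoe3 allele of apolipoprotein E. The labels name no sex, promoter or construct, and do not say how the human alleles were introduced. The table holds 1 mean per gene over all 10 libraries and 1 log2 fold change of Apoe4 over Apoe3, shrunk towards 0 by the authors' model, so no value per animal is given here.

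Complex I takes electrons from NADH, passes them along a flavin and a row of iron-sulfur clusters to ubiquinone, and pumps protons across the inner mitochondrial membrane. The electron carriers sit in an arm that reaches into the matrix, and the pumps in an arm within the membrane. The catalytic core is made of nuclear and mitochondrial gene products, around which accessory subunits are built in by dedicated assembly factors. Neurons, the olfactory sensory neurons among them, meet much of their demand for ATP through this chain.

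One gene of the set rose in Apoe4 and none fell. Ndufa3, an accessory subunit of the proximal membrane arm, was 36.7% higher in Apoe4 (log2 fold change 0.45, standard error 0.09, adjusted p = 4.9e-04 by the authors' DESeq2 test in their deposited table). Of the 43 other genes tested, 41 had negative and 2 had positive log2 fold changes, and none passed an adjusted p of 0.05, the share of false calls accepted. The background was 0.779% of all 16050 tested genes past that threshold in either direction, 0.324% of them higher and 0.455% lower in Apoe4. The median log2 fold change was -0.13 over the 44 genes and 0.0026 over all genes tested, and negative values made up 93.2% of the set against 48.9% of all genes. At an unadjusted p under 0.05, 10 of the 44 were lower and 1 was higher, against a background of 5.76% lower, 4.54% higher and 10.3% in either direction among all tested genes.

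Steps as small as the median of the set were below what the comparison could call. At the median standard error of the set, 0.09 on the log2 scale, a gene needed a log2 fold change of about 0.33, or 20.5% lower, to pass. The lowest value of any member was -0.27. In tissue RNA, fewer cells of a type and less RNA per cell cannot be told apart. Markers of other cells moved beside these values in the authors' deposited table. Of 7 tested erythroid markers 4 passed the threshold, lower in Apoe4, and the 7 had a median log2 fold change of -0.27. Of 10 sustentacular (supporting cell) markers 2 passed, also lower. With transcript length corrected for by 1 curve or by curves in bins of mean count, 3 erythroid and 1 sustentacular marker, Aldh1a7, passed, and Cbr2 did not. Of 10 mature sensory neuron markers none passed. At an unadjusted p under 0.05, where 5.76% of all tested genes were lower, 1 of these markers was lower. Their part in the complex I values was not tested. The Y-linked genes Kdm5d, Eif2s3y, Uty and Ddx3y had log2 fold changes between -3.72 and -2.80 in that table, each past the threshold, and Xist had 6.41 with no adjusted p, so the sex of the animals and the allele cannot be told apart. Apoe, counted on the mouse genome, was at -0.16 (adjusted p = 0.579). How far reads of the human alleles enter that count was not tested, so it is no measure of the human transcripts. The neuron marker Omp and the sustentacular marker Cyp2g1 had mean normalized counts, that is read counts scaled for depth, of 113676 and 63585.

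**Figure D1:**
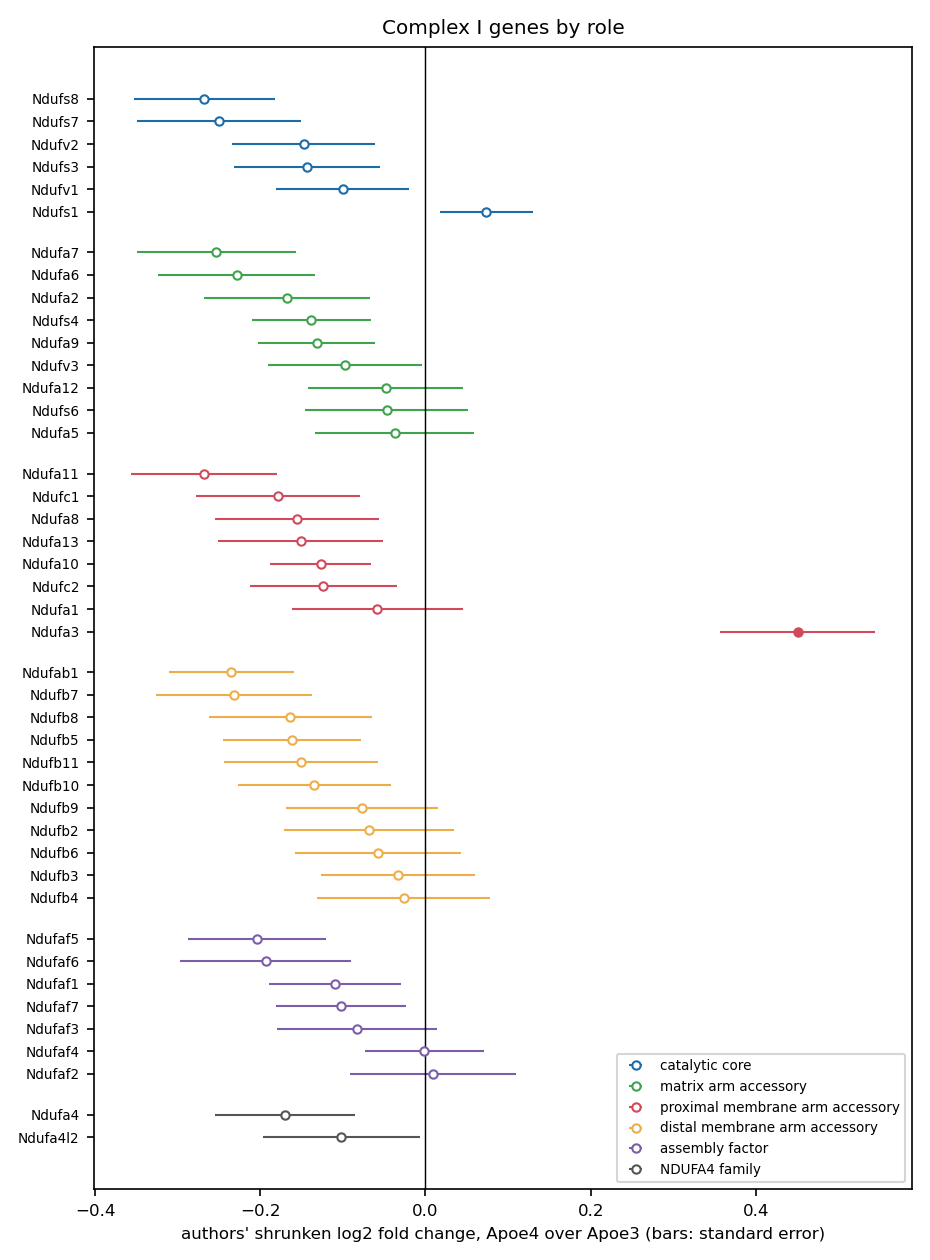
Each point is the authors' log2 fold change of Apoe4 over Apoe3 for 1 of the complex I genes reported by name, grouped by role, and each bar spans 1 standard error to either side; filled points passed an adjusted p of 0.05. Only Ndufa3 is filled, at 0.45, while nearly all others lie left of 0, the lowest at -0.27.

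Ndufa3 lies on chromosome 7, 3617347 to 3620165 (GRCm38.p6, RefSeq), and had a mean of 573 normalized counts. The 95% interval of its log2 fold change ran from 0.27 to 0.63 on the authors' shrunken scale, and an approximate undoing of the shrinkage gave 0.62. By p-value it was number 47 of the 125 genes past the threshold in the authors' deposited table, and number 23 of the 52 that were higher. In a test of the shrunken fold against a fold of 1.2 it did not pass. Its adjusted p lay between 3.9e-07 and 6.3e-04 over the filters and length corrections tried. Apoe is 16.1 Mb away on the same chromosome.

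Within 100 kb of Ndufa3, 10 other genes were tested, none passed the threshold and 1, Rps9, had an unadjusted p under 0.05 in the authors' deposited table. Tfpt, which runs towards Ndufa3 from the other strand, ends 159 bases beyond it in RefSeq and shares 4 exonic bases with it in GENCODE. Tfpt had a log2 fold change of -0.08 (standard error 0.09, adjusted p = 0.806) in the authors' deposited table. Oscar, the nearest gene on the other side, stood at 0.02 with a mean of only 12.3 normalized counts. Prpf31, a splicing factor, was at 0.09 (adjusted p = 0.678), and Rps9, a ribosomal protein, had the lowest value at -0.24 (adjusted p = 0.303). The remaining 6, Cnot3, Leng1, Tmc4, Mboat7, Tsen34 and Pirb, lay between -0.05 and 0.04. Beyond that window, Eps8l1 (chromosome 7, 4460638 to 4480487), named after its value was seen, was also higher in Apoe4. It stood at 1.14 (adjusted p = 2.7e-36 by the authors' DESeq2 test). Any link with Ndufa3 was not tested, and other genes beyond the window are not described here.

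**Figure D2:**
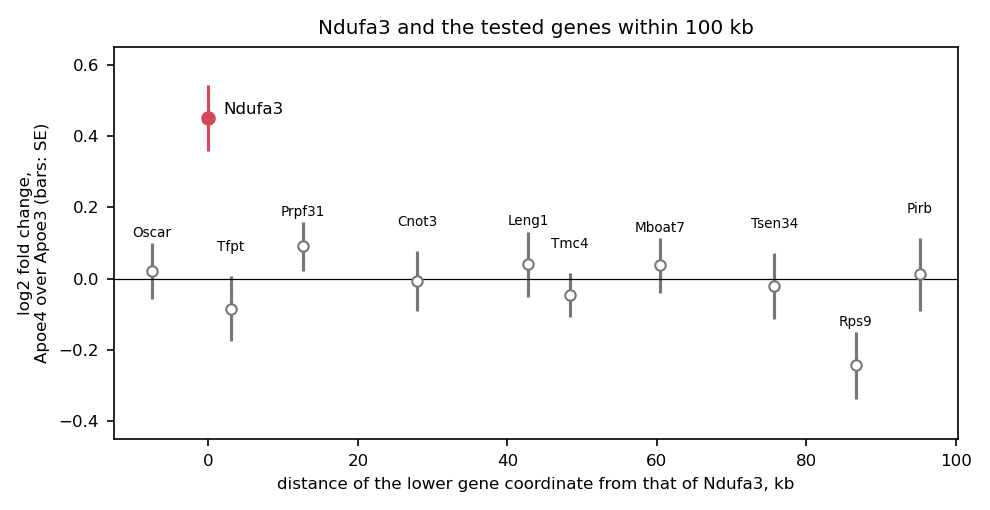
Log2 fold change of Apoe4 over Apoe3, with standard errors as bars, for Ndufa3 (filled) and the 10 tested genes within 100 kb, placed by distance in kb. Ndufa3 stands at 0.45, and the others lie between -0.24 and 0.09.

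The start regions of Ndufa3, the 1 gene that rose, and of the 3 genes with the lowest test statistic are shown. Each runs from 250 bases before the RefSeq start to 30 bases after it (GRCm38.p6), 5′ to 3′ on the strand of the gene; for Ndufa3 the promoter table's start lies slightly inside the range given above. Ndufa3 is chr7:3617123-3617402 (plus strand), Ndufs8 is chr19:3912745-3913024 (minus strand), Ndufab1 is chr7:122101819-122102098 (minus strand) and Ndufa11 is chr17:56717512-56717791 (plus strand). Capitals mark matches, on either strand, to GCGCATGC (the core of the NRF1 site), CCGGAAG (ETS factors such as GABP), AAGATGGC (YY1), TGACGTCA (CREB) and GGGCGG (SP1).
Ndufa3: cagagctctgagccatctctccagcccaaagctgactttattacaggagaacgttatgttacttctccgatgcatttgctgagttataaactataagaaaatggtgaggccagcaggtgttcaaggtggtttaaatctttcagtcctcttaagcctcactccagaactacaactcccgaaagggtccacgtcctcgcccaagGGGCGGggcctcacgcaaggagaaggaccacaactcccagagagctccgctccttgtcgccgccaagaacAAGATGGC
Ndufs8: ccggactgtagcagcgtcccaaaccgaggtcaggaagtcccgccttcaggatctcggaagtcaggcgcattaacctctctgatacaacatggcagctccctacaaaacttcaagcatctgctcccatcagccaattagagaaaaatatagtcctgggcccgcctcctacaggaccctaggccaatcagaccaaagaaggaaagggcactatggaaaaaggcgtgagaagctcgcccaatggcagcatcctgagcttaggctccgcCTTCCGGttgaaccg
Ndufab1: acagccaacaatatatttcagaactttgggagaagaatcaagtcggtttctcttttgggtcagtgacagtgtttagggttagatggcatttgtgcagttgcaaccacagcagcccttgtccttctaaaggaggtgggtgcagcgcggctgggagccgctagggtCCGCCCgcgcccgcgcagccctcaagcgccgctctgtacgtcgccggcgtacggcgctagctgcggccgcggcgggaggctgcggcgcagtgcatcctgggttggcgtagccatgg
Ndufa11: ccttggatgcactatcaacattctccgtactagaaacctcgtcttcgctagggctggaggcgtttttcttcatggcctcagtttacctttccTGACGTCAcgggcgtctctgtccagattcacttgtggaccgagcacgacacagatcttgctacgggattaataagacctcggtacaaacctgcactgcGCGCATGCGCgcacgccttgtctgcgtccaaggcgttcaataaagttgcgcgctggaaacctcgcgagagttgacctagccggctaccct

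Ndufa11 held a palindromic pair of overlapping NRF1 matches from base -60 to -51 and a CREB match from -158 to -151, counted from the start. Ndufa3 held a YY1 match at bases 23 to 30 after the start and an SP1 match from -48 to -43. Ndufs8 held 1 ETS match after its start, and Ndufab1 held 1 SP1 match. Over the whole 300-base windows in the RefSeq table, 38 of the 44 tested members could be searched, beside 12198 of all tested genes. The YY1 letters were found in 18.4% of members and 4.5% of all genes, the NRF1 letters in 13.2% and 5.1%, and the CREB letters in 7.9% and 3.2%. The ETS letters were found in 13.2% of members and 16.7% of all genes, and the SP1 letters in 52.6% and 62.5%. These shares describe letters in a window and were not tested.

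The catalytic core is coded in the nucleus by 7 of the genes, and 6 of these had negative values. Ndufs8, which holds iron-sulfur clusters on the path to ubiquinone (chromosome 19, 3908863 to 3912774), was at -0.27 with a standard error of 0.09 (unadjusted p = 0.00165, adjusted p = 0.129) in the authors' deposited table. Ndufs7, part of the ubiquinone site, was at -0.25 (adjusted p = 0.314). Ndufs8 had the lowest mean of the core, 1144 normalized counts. Ndufv2, an iron-sulfur subunit of the NADH end, was at -0.15, and Ndufs3, another subunit of the matrix arm, at -0.14. Ndufv1, which binds NADH and the flavin, was at -0.10, also in the authors' deposited table. Ndufs1, which carries iron-sulfur clusters through the matrix arm, was the exception at 0.07 with a standard error of 0.06 (adjusted p = 0.692). Its error was the smallest among the tested members of the set. Its transcript, at 2661 bases, was the longest of the core.

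The 9 accessory subunits of the matrix arm all had negative values, with a median log2 fold change of -0.13 in the authors' deposited table. Ndufa7 was the lowest at -0.25 (adjusted p = 0.287), followed by Ndufa6, a small protein that docks the acyl carrier, at -0.23 (adjusted p = 0.355). Ndufs4, whose loss in mice models Leigh syndrome, was at -0.14 with a standard error of 0.07 (adjusted p = 0.495). Ndufv3 had the highest mean of the group, 1558 normalized counts, at -0.10. Ndufs6 had the lowest mean, 772, at -0.05. The other 4, Ndufa2, Ndufa5, Ndufa9 and Ndufa12, lay between -0.17 and -0.04. None of the 9 passed, and 2 had an unadjusted p under 0.05.

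In the proximal membrane arm, 9 accessory genes were listed and 8 tested, 7 of them negative. Ndufa11, a membrane protein of the complex (chromosome 17, 56717762 to 56724248), was at -0.27 with a standard error of 0.09 (unadjusted p = 0.00244, adjusted p = 0.161) in the authors' deposited table. Ndufa13, also known as GRIM-19, had the highest mean at 1463 normalized counts and stood at -0.15. Ndufc1 had the lowest at 446 and stood at -0.18. Ndufa10 was at -0.13 with a small standard error of 0.06 (adjusted p = 0.460). Ndufa8 and Ndufc2 were at -0.16 and -0.12, and Ndufa1, on the X chromosome, at -0.06. Against these 7, Ndufa3 alone was positive.

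Ndufs5, another subunit of the proximal membrane arm, was marked low and not tested. Its mean of 0.208 adds up to about 2.08 normalized counts over all 10 libraries, while each other member of its group had a mean of at least 446. A processed pseudogene, BC002163, matches 319 bases of its transcript at 99.4% identity in GENCODE, and it too was marked low, with a mean of 4.70. The part of this copy in the low count was not tested. How much Ndufs5 RNA the tissue holds cannot be read from this value.

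The 11 accessory subunits of the distal membrane arm tested were all negative, with a median of -0.13 in the authors' deposited table. Ndufab1, the mitochondrial acyl carrier protein, which binds in both arms and also serves fatty acid synthesis (chromosome 7, 122086815 to 122101848), was at -0.23 with a standard error of 0.08 (unadjusted p = 0.00189, adjusted p = 0.139). Ndufb7 was at -0.23 (adjusted p = 0.346) and Ndufb5 at -0.16 (adjusted p = 0.487). Ndufb8 had the highest mean of the arm, 1998 normalized counts, at -0.16. Ndufb11, the other X-linked member, was at -0.15, and Ndufb2, Ndufb6, Ndufb9 and Ndufb10 lay between -0.13 and -0.06. Ndufb3 and Ndufb4, at -0.03 each, had the values nearest 0, and Ndufb4 also had the lowest mean of the arm, 416, and the largest standard error of the set, 0.10. Ndufb1 and the assembly gene Ndufaf8 were not analysed here.

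The 7 assembly factors had a median log2 fold change of -0.10, beside -0.13 over 35 subunits, a difference that was not tested, and none passed. Ndufaf5, which in human cells modifies NDUFS7, was at -0.20 with a standard error of 0.08 (adjusted p = 0.349) in the authors' deposited table. Ndufaf6 was at -0.19 with the lowest mean of the factors, 121 normalized counts. Ndufaf1, which helps build the membrane arm, was at -0.11. Ndufaf7, a methyltransferase, was at -0.10. Ndufaf3 and Ndufaf4, partners in early assembly, were at -0.08 and -0.0013, and Ndufaf4 had the highest mean of the factors, 811. Ndufaf2, a late factor related in sequence to Ndufa12, was at 0.0085. The 2 genes of the NDUFA4 family stand apart from the others, since NDUFA4 was later placed in complex IV and NDUFA4L2 is a homologue induced by hypoxia. Ndufa4 was at -0.17 (unadjusted p = 0.0443, adjusted p = 0.473) and Ndufa4l2 at -0.10.

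Assembly genes with other names were described from a list of 11, of which 10 were tested and none passed. At an unadjusted p under 0.05, 2 of the 10 were lower, against 5.76% of all tested genes. With 1 length curve subtracted 1 was lower, and with curves in bins of mean 0 were, against 3.75% and 3.58%. The 10 had a median log2 fold change of -0.05, with 7 negative and 3 positive values in the authors' deposited table. Dmac1, listed there as Tmem261, and Dmac2, listed as Atp5sl, were the lowest at -0.19 each (adjusted p = 0.478 and 0.348). Foxred1 was at -0.15 and Ecsit, a partner of Ndufaf1, at -0.11. Tmem70, Acad9 and Tmem126b lay between -0.05 and -0.03, and Nubpl, which delivers iron-sulfur clusters, Timmdc1 and Tmem186 between 0.02 and 0.05. Coa1 and the 7 subunits coded by mitochondrial DNA were not analysed here.

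Per transcript length, the 4 groups of subunits had medians near each other and the assembly factors a lower one. Means are given per kilobase of the longest coding transcript, so a long annotated transcript lowers the value. The median was 1138 normalized counts per kilobase in the catalytic core, 1026 in the matrix arm, 1141 in the proximal and 1165 in the distal membrane arm, and 246 among assembly factors. The lowest core gene was Ndufs1, at 832. Among the 4 groups of subunits the distal arm had the widest range, from 124 for Ndufb2 to 2099 for Ndufb10, and the Ndufb2 value is divided by a transcript of 4371 bases. Assembly factors ran from 112 for Ndufaf6 to 370 for Ndufaf3, so each lay below every core gene. Ndufa4 was highest of the set at 4467, and Ndufa4l2, at 19.8, was the lowest tested. Ndufa3, at 1113, was close to the median of its group.

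**Figure D3:**
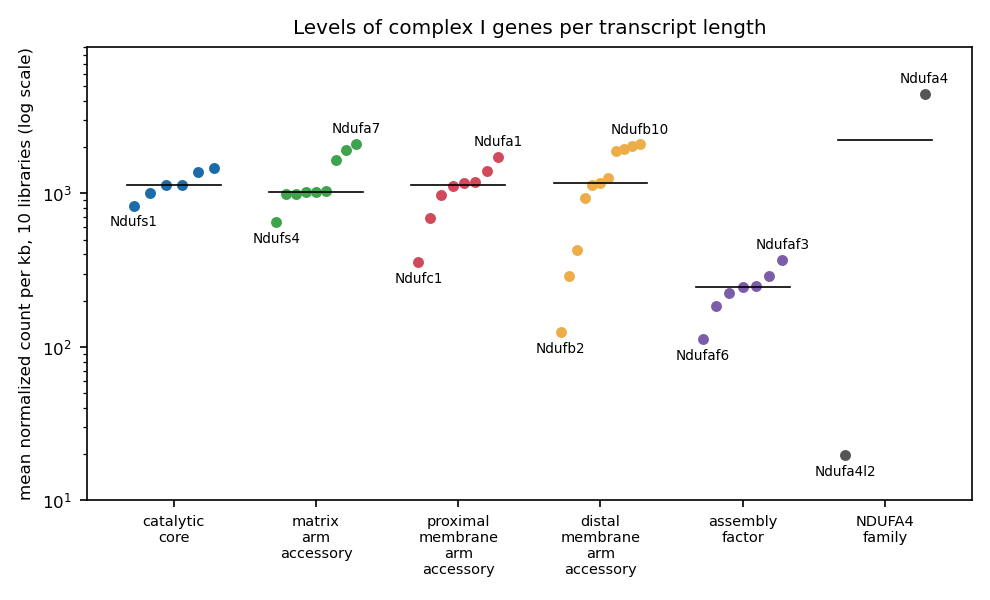
Mean normalized count over all 10 libraries per kilobase of longest coding transcript, on a log scale, for the tested genes reported by name, by role; horizontal lines are medians over all tested genes of the role. The 4 groups of subunits have medians from 1026 to 1165, and assembly factors a median of 246.

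Transcript length moved with the fold changes across the whole table. The Wald statistic, the log2 fold change over its standard error, was higher for longer transcripts (Spearman rho = 0.415 over 15961 genes, which share the same 10 libraries). Complex I transcripts are short, with a median of 1216 bases against 3341 for all tested genes. Within the set rho was -0.09 over 44 genes. Of other genes with a mean between 363 and 1916 and a transcript between 689 and 3001 bases, the ranges that hold the middle of the set, 75.2% of 2201 had negative values and the median was -0.06. Of the 24 complex I genes in the same ranges, 95.8% had negative values and the median was -0.13. At an unadjusted p under 0.05, 12.4% of those other genes and 5 of the 24 were lower.

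With 1 length curve subtracted from the whole table, 33 of 44 members had values below 0, against 50.1% of all genes, and 4 were lower and 1 higher at an unadjusted p under 0.05, against 3.75% and 3.65% (7.39% in either direction). Ndufa3 alone passed the adjusted threshold, against 0.301% of all genes higher, 0.338% lower and 0.639% in either direction. With a length curve fitted within each of 4 equal bins of mean count and subtracted, the median of the set was -0.035, beside 8.4e-05 for all genes. Values below 0 were then held by 30 of 44 members, against 49.9% of all genes. At an unadjusted p under 0.05, 2 were lower and 1 was higher, against 3.58% and 3.41% of all genes (6.99% in either direction), in place of 10 and 1 before. Past the adjusted threshold stood Ndufa3 alone, against 0.32% of all genes higher, 0.326% lower and 0.645% in either direction. The 2 that were lower were Ndufab1 (unadjusted p = 0.00179, log2 fold change -0.24) and Ndufb7 (unadjusted p = 0.00426, -0.26), whose longest transcripts have 3479 and 4435 bases. The longest coding transcript of Ndufb7 has only 623 bases, and with a curve on coding length its log2 fold change was -0.13 (unadjusted p = 0.179). Ndufs8 and Ndufa11, at -0.14 and -0.15 with the curves in bins (unadjusted p = 0.104 and 0.0891), had unadjusted p = 0.0235 and 0.0324 with 1 length curve and 0.033 and 0.0466 with the curve on coding length. Ndufab1 was under 0.05 with each of the 3 corrections, but its coding length is the same 3479 bases, so these are not separate checks. It also has 2 copies in GENCODE, of which the processed pseudogene Ndufab1-ps matches 469 bases at 99.4% identity. Of its exonic bases 2.8% are shared with Gm44986. With the curves in bins, the median was -0.02 in the core, -0.01 in the distal arm and -0.04 among the assembly factors. It was -0.03 in the matrix arm, -0.03 in the proximal arm and -0.07 in the NDUFA4 family. With 1 length curve, the core was at -0.06, the distal arm at -0.07 and the assembly factors at -0.04. Ndufa3 shifted in the same direction as these medians, upwards, from 0.45 as deposited to 0.58 with the curves in bins. What ties the statistic to transcript length in these libraries was not tested.

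**Figure D4:**
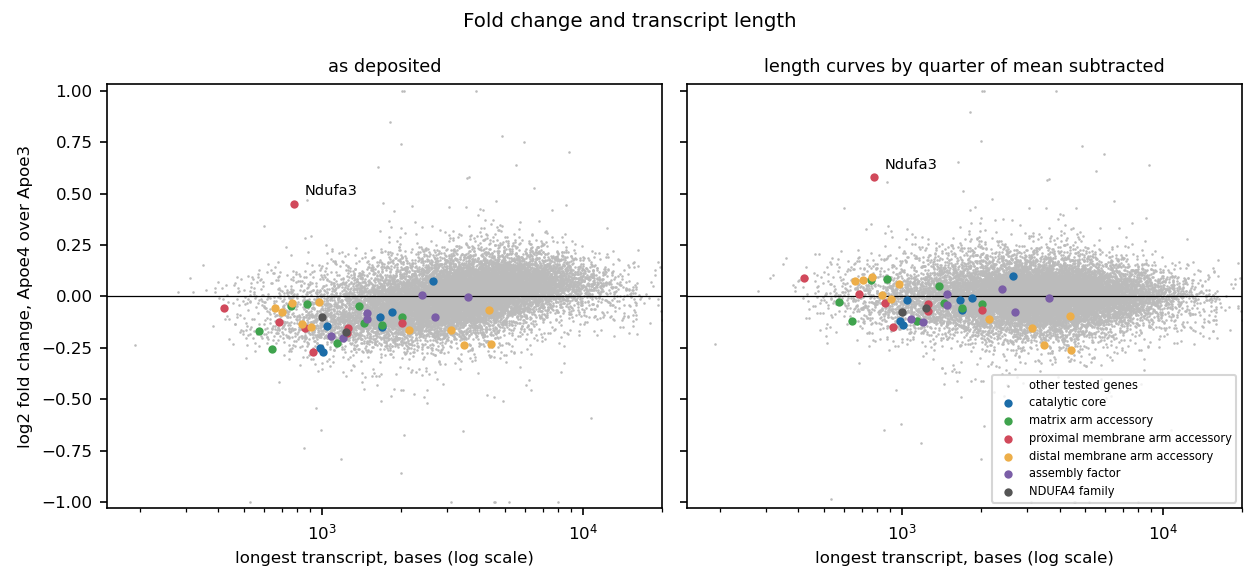
Log2 fold change of Apoe4 over Apoe3 against the longest transcript of each gene in bases (log scale), as deposited (left) and with length curves in bins of mean count subtracted (right), for 44 complex I genes in colour and other tested genes in grey; 9 other genes on the left and 8 on the right lie beyond 1.0 and are drawn at the edge, and 24 lie outside the length axis. On the left 41 of the 44 coloured points lie below 0, with a median of -0.13, and on the right 30 do, with a median of -0.035; Ndufa3 is above the others in both.

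The other complexes of the respiratory chain had values of the same order, here too taken from the authors' deposited table. Median log2 fold changes were -0.15 over 4 genes of complex II and -0.18 over 9 of complex III. They were -0.16 over 10 genes of complex IV and -0.16 over 15 of complex V. No gene was past the threshold, and 20 of 38 were lower at an unadjusted p under 0.05, against 5.76% of all tested genes. Of the 38 genes of complexes II to V, 36 were negative, beside 41 of 44 in complex I. With the length curves in bins of mean subtracted, 29 of the 38 were negative, beside 30 of 44 in complex I, and the medians were -0.046 and -0.035. At an unadjusted p under 0.05, 3 of the 38 and 2 of the 44 were then lower, against 3.58% of all genes. With 1 length curve, 8 of the 38 were lower at that limit, beside 4 of 44 in complex I, against 3.75% of all genes. Genes of mitochondrial content and biogenesis, such as Tfam, Cs and Vdac1, had a median of -0.03 over 12 genes as deposited, with 7 negative, none past the threshold and 0 at an unadjusted p under 0.05. Ppargc1a, a coactivator of mitochondrial biogenesis, was at 0.07 and Tomm40, an import channel that neighbours Apoe, at -0.12, the ends of that list. No test compared the complexes with each other.

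**Figure D5:**
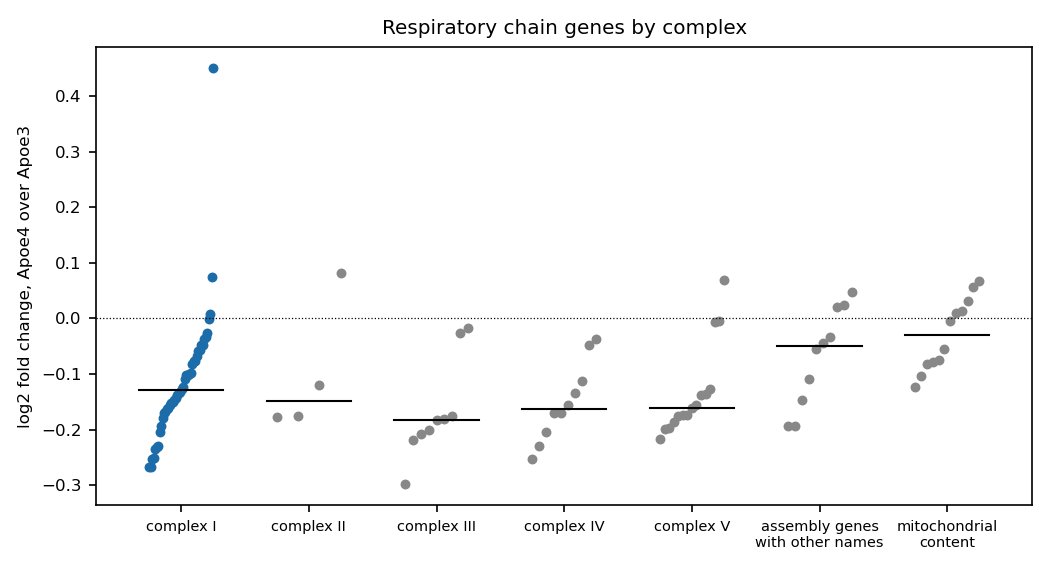
Each point is the authors' log2 fold change of Apoe4 over Apoe3 for 1 tested gene, and horizontal lines are medians, for complex I and for the lists of the other complexes, assembly genes with other names and mitochondrial content. Complexes I to V have medians from -0.18 to -0.13, and the highest point, at 0.45, is Ndufa3.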

How the data were processed

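Poly(A)-selected RNA was sequenced as paired-end reads, per the labels' protocols. The submitters' processing notes name STAR, featureCounts, DESeq2 and GRCm38; versions and strandedness are not stated there, and the annotation is not given in the sources used here. Depth was estimated at about 14900000 to 20100000 assigned reads per library. The estimate takes assigned reads as proportional to the size factors, which were read from the 10 levels that means take in genes with 1 read.

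The authors deposited means as a signal of normalized counts, log2 fold changes with log2 standard errors, a Wald score, a p-value and an adjusted p-value per gene. The score equals fold over error within 1.3e-13. The standard errors stop at 0.105, a ceiling that shrinkage gives. The file names no direction: the 10 single-read levels split into 6 positive and 4 negative, as 6 Apoe4 and 4 Apoe3 libraries would, so a positive fold was read as higher in Apoe4. The authors marked 8314 genes low, with means up to 9.99.

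Single genes were judged by the deposited DESeq2 Wald test of the authors, adjusted over 16050 genes at 0.05. The count test planned for values per library did not apply. Members, role groups and lists were chosen with earlier results of these data known. Named genes were those past the threshold, the 6 lowest and 6 highest statistics, the highest and lowest mean in each of 6 role groups, the core, the assembly genes, tested neighbours within 100 kb, Apoe, Xist and the Y-linked genes; genes of other lists were named after their values were seen, and 1 core gene is counted in the totals and not reported by name here. Lengths came from the GENCODE annotation of GRCm38 (99.4% of tested genes matched) and positions from RefSeq GRCm38.p6 (15357 by symbol, 652 by synonym). Copies were found with blastn 2.17.0 at 95% identity over 200 bases. Lowess curves (statsmodels 0.14.6, fraction 0.3) of the Wald statistic, and of the fold, on log2 length were subtracted as alternatives. Curves of the statistic were also run on simulated, independent statistics with large known changes, which cannot speak for small shared shifts. The series' design text calls the libraries biological replicates.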

Additional observations from a re-analysis of the deposited data

How the results depend on the processing

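The rise of Ndufa3 was called with no filter on the mean, with a mean of at least 100, without X and Y genes, at an adjusted p of 0.1 and with each length correction, and no other member was called in any of these settings. The lowest adjusted p of another member was 0.12. Against a fold of 1.2 the count was 0, on shrunken folds. Members lower at an unadjusted p under 0.05 numbered 4 with 1 length curve subtracted and 2 with curves in bins of mean, in place of 10. The shares of all genes were 3.75%, 3.58% and 5.76% in that order. With a curve on coding length, chosen after seeing the data, 3 members were lower, and the share of all genes was not computed. The median log2 fold change with these 3 corrections was -0.07, -0.035 and -0.06, in place of -0.13. The cause was not tested. With shrinkage approximately undone the median was -0.16. Leaving out Ndufa4 and Ndufa4l2, also chosen after seeing the data, gave -0.13. Without genes that have a copy or an exon overlap, 25 members had a median of -0.14. Of all 45 members, 8 have a processed pseudogene copy and 16 share exonic bases with another gene in GENCODE, up to 39.0% for Ndufb6 with Smim27, 30.0% for Ndufa13 with Tssk6 and 28.6% for Ndufb9, so those counts are uncertain. No paired analysis was possible because the table holds no values per library, and leaving out single replicates was not run for the same reason.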

Other observations

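The median standard error of the log2 fold change was 0.09 over 34 complex I genes with a mean between 363 and 1916, and 0.08 over 6497 other genes in that range. Restricting the other genes to transcripts between 689 and 3001 bases left their median at 0.08 over 2201 genes. No test was run on this difference.

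All 8 respiratory ciliated cell markers had positive values in the authors' deposited table, with a median log2 fold change of 0.08. None passed and 2 were higher at an unadjusted p under 0.05, against 4.54% of all tested genes. Of 8 macrophage markers none passed, and the median was -0.05. At an unadjusted p under 0.05, 1 of them was lower, against 5.76% of all tested genes. Of 8 skeletal muscle markers 3 were tested, none passed and 0 had an unadjusted p under 0.05. The 5 others were marked low.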
